A study of Homo sapiens with 9 samples.

Results

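The genes described here are 10 members of the Notch pathway: the receptors *NOTCH1*, *NOTCH2* and *NOTCH3*, the ligands *JAG1*, *JAG2* and *DLL1*, and the target genes *HES1*, *HES4*, *HEY1* and *NRARP*. They were chosen by symbol, and each matched a row of the gene table, giving 10 of 59452 rows. The data were bulk RNA-seq libraries of MDA-MB-453, a human breast cancer line that the labels call wild type and triple-negative. There were 9 libraries, 3 from attached cells with vehicle (DMSO), 3 from cells in forced suspension with vehicle, and 3 from cells in forced suspension with 10 µmol/L AT-0174, a dual inhibitor of the tryptophan-degrading enzymes TDO2 and IDO1. Cells were collected at 48 hours, suspension was forced by coating the plate with poly-HEMA so that cells could not attach, and AT-0174 was given to suspended cells only. The study describes biological triplicates of a single line, so p-values measure the spread among these libraries.

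Notch receptors sit in the cell membrane and are activated by ligands of the Jagged and Delta-like families on neighboring cells. Ligand binding leads to cleavage of the receptor, first by an ADAM protease and then by the γ-secretase complex, and the freed intracellular domain enters the nucleus and joins the DNA-binding protein RBPJ to switch on targets such as the HES and HEY repressors. In breast epithelium the pathway is known for its part in cell fate choices, and its signal depends on contact between cells.

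The libraries held 36649997 to 48019126 estimated counts. Epithelial genes were high in every library, with *EPCAM* at 297 to 338 CPM (counts scaled to library size) and *KRT8* at 875 to 955 CPM. *ESR1* and *PGR*, which encode the estrogen and progesterone receptors, had at most 4 and 18 counts per library. *ERBB2* was at 1030 to 1080 CPM, which at the RNA level goes against the triple-negative label. The leukocyte gene *PTPRC*, the endothelial gene *PECAM1* and the fibroblast genes *COL1A2* and *PDGFRB* had at most 2, 7, 4 and 8 counts, whereas *COL1A1* was at 107 to 149 CPM. In bulk RNA, fewer cells expressing a gene and less of its RNA per cell cannot be told apart.

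RBPJ is known to bind the letters TGGGAA, and of the members searched below only *HES1* and *HES4* held them. *JAG1* held none. The target *NRARP* also held none, and its sequence is not printed. The sequences before the start of *HES1*, *HES4* and *JAG1* are shown. They are reference sequences from RefSeq (GRCh38.p14), written 5′ to 3′ on the strand of the gene, with each TGGGAA in capitals. The *HES1* sequence covers the 150 bases before the start, chr3:194135998-194136147, plus strand. The *HES4* sequence is the 30 bases around its match, chr1:1000156-1000185, minus strand, which lie partly in the first exon of the longer transcript ENST00000428771. The *JAG1* sequence covers the 150 bases before the start, chr20:10674000-10674149, minus strand.
HES1: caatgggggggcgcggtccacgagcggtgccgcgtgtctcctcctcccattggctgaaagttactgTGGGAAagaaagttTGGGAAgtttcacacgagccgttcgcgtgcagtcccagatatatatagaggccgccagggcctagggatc
HES4: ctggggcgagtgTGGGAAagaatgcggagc
JAG1: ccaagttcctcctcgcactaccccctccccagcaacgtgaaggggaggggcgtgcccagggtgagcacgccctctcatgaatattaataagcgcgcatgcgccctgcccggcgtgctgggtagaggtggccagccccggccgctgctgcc

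TGGGAA was searched on both strands of the 250 bases before the start of 8 of the 10 members. *DLL1* and *HEY1* were not searched. *HES1* held 2 matches, beginning 84 and 70 bases before its start, and *HES4* held 1, beginning 76 bases before its start, all on the strand of the gene. *JAG1*, *JAG2*, *NOTCH1*, *NOTCH2*, *NOTCH3* and *NRARP* held none in this window. Of the 35116 promoter entries in the same table, 20.8% held the letters at least once and 2.9% held 2 or more, so a single match as in *HES4* is common. A match is a description of the letters and no evidence of binding.

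TPM (transcript levels scaled to library size and transcript length) were made per transcript and summed by gene, and only TPM were used to order the genes within a group. In attached cells the order was *JAG2* at 103 ± 0.927 TPM (SD, n = 3), *HES1* at 58.9 ± 1.86, *HES4* at 47.7 ± 1.26, *NOTCH3* at 47.2 ± 1.43, *NOTCH2* at 27.3 ± 1.57, *NRARP* at 23.1 ± 0.426, *JAG1* at 14.8 ± 0.729, *NOTCH1* at 12.3 ± 0.253, *DLL1* at 10.8 ± 0.446 and *HEY1* at 0.374 ± 0.167. The library ranges of neighbors in this order were apart except for *HES4* and *NOTCH3*. This order holds for TPM summed over all transcripts and changed when coding transcripts alone were counted, as given below. In suspended cells with vehicle *JAG1* moved from rank 7 to rank 9, at 9.31 ± 0.475 TPM, with its range below those of *NOTCH1* (14.2 ± 1.18) and *DLL1* (10.3 ± 0.496). It kept rank 9 with AT-0174, at 7.68 ± 0.163 TPM, where the ranges of *HES1* and *HES4* and of *NOTCH2* and *NRARP* overlapped. TPM were not rescaled between groups, and the median gene was 0.10 higher in suspended than in attached cells with vehicle on the log2 TPM scale, so levels between groups are compared below in CPM.

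**Figure D1:**
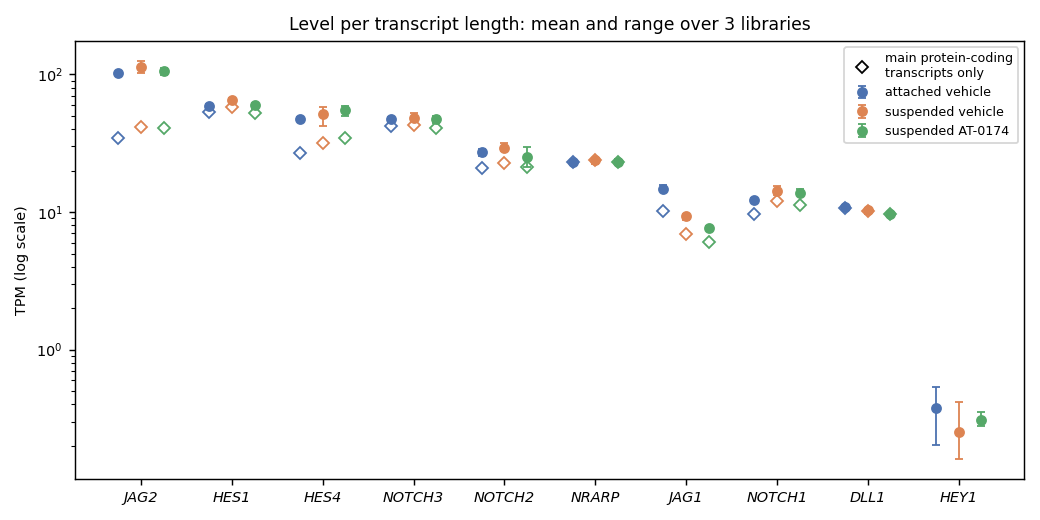
Level of each gene per transcript length in TPM (log scale), ordered by attached cells; filled points are means and bars the range over 3 libraries per group, and open diamonds are the means of the main protein-coding transcripts alone (none drawn for HEY1). JAG1 sits above NOTCH1 and DLL1 in attached cells, at 14.8 TPM, and below both in suspended cells, at 9.31 and 7.68 TPM, while the open diamonds of JAG2 lie far below its filled points.

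The high place of *JAG2* rested on short annotated transcripts that keep an intron. ENST00000553051, which has 6 exons and is annotated as a retained intron, took 36.0 to 39.2% of the *JAG2* TPM in attached cells, and ENST00000546616, of the same class with 7 exons, took 23.3 to 27.5%. The 2 protein-coding transcripts that carried most reads summed to 34.4 ± 0.574 TPM in attached cells, 33.3% of the *JAG2* total. Counted by such coding transcripts alone, an alternative chosen after these shares were seen, *JAG2* stood below *HES1* (53.6 ± 1.21 TPM) and *NOTCH3* (41.9 ± 0.317 TPM). *JAG1* then reached 10.2 ± 0.491 TPM in attached cells, with a range that overlapped those of *DLL1* (10.7 ± 0.614) and *NOTCH1* (9.68 ± 0.986). In suspended cells with vehicle its coding transcript was at 6.93 ± 0.392 TPM, below every library of *DLL1* (10.2 ± 0.381) and *NOTCH1* (12 ± 0.582). In *NOTCH2* the 2-exon transcript ENST00000652737 took 14.3 to 24.6% of the TPM in attached cells, from 22.0 to 40.3 reads. Of 27 TPM means recomputed from only those transcripts above 5% of the gene in every library, 13 moved by more than 1 SD.

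The comparison of suspended with attached cells, both with vehicle, asks what loss of attachment changes. Of the 10 genes, 2 passed an adjusted p of 0.05 in edgeR's quasi-likelihood test, both lower in suspension, the ligands *JAG1* and *DLL1*. Over all 15528 genes tested, 21.2% passed in either direction and 10.8% were lower, so the share among the 10 genes was close to that of all genes. The median log2 fold change was −0.04 over the 10 genes and 0.00 over all genes. An unadjusted p under 0.05 was reached by 5 of the 10, beside 34.1% of all genes tested. Groups did not overlap for 3 of them, *JAG1*, *DLL1* and *NOTCH3*, all lower in suspension, against 38.1% of all genes tested in either direction.

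*JAG1* encodes a Jagged ligand and lies at chr20:10637684-10673999 on the minus strand (ENSG00000101384; gene positions are from GENCODE 44, GRCh38). Its level was 49.1, 49.8 and 50.9 CPM in the attached libraries, 32.2, 29.5 and 31.3 CPM in the suspended libraries with vehicle, and 26.5, 24.7 and 28 CPM in those with AT-0174. The 3 groups did not overlap, attached cells being highest and suspended cells with AT-0174 lowest. The mean fell from 50 ± 0.875 to 31 ± 1.37 CPM on suspension (SD, n = 3), a log2 fold change of −0.69 with a standard error (SE) of 0.0503 and a 95% interval of −0.80 to −0.58 (adjusted p = 3.73e-06, edgeR). That is 1.61-fold lower, and *JAG1* ranked 30 of 15528 genes by p. The call held under all 17 alternative settings, with log2 fold changes from −0.77 to −0.65.

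With AT-0174 the *JAG1* mean was 26.4 ± 1.67 CPM, a log2 fold change of −0.23 against suspended cells with vehicle (SE 0.0517, 95% interval −0.34 to −0.12). The unadjusted p was 0.000748 and the adjusted p 0.0712 in edgeR's test, so this difference did not pass the threshold. It passed in 3 of 17 alternatives, with DESeq2 (adjusted p = 0.0269), without a filter on low counts (0.00327) and with a minimum of 10 counts per library (0.0484). Over all alternatives the log2 fold change was −0.28 to −0.18 and the adjusted p 0.00327 to 0.432. Relative to attached cells, *JAG1* was at 62.0% in suspended cells with vehicle and 52.8% in those with AT-0174.

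**Figure D2:**
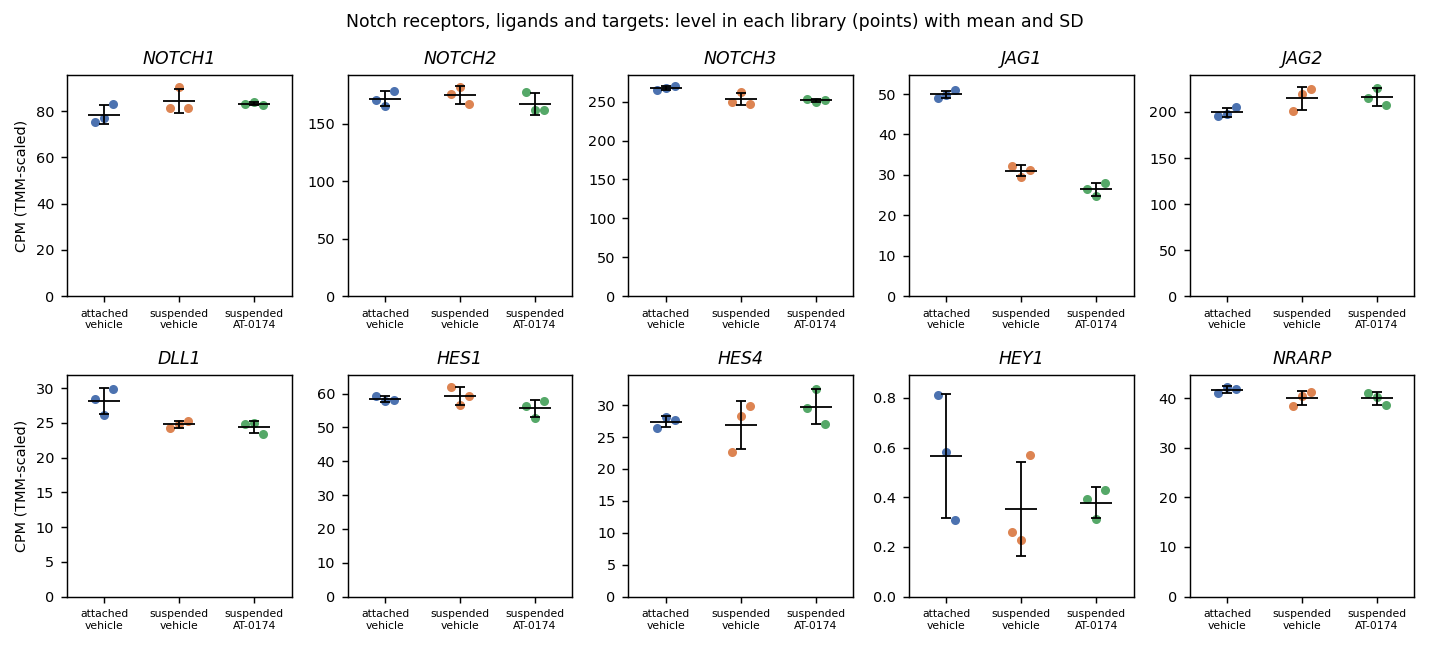
Level of each of the 10 genes in CPM scaled by TMM, by group; each point is a library, horizontal bars are means and error bars SDs (n = 3), and every axis starts at 0. JAG1 falls from 49.1 to 50.9 CPM in attached cells to 29.5 to 32.2 CPM in suspended cells with vehicle and 24.7 to 28 CPM with AT-0174, whereas most other panels overlap between groups.

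The difference in *JAG1* was also present in its main transcript. ENST00000254958, a protein-coding transcript of 26 exons, was at 10.7, 10.3 and 9.71 TPM in attached cells, at 6.82, 6.60 and 7.36 TPM in suspended cells with vehicle, and at 6.09, 5.30 and 6.79 TPM with AT-0174. It was lower in all 6 suspended libraries than in any attached library, and the suspended groups overlapped. Its share of the *JAG1* TPM was 62.1 to 74.3% in attached cells, 72.3 to 75.8% in suspended cells with vehicle and 69.5 to 89.9% with AT-0174. A long noncoding gene on the opposite strand, ENSG00000270792, had at most 4 counts per library.

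*DLL1* encodes a Delta-like ligand and lies at chr6:170282206-170306565 on the minus strand (ENSG00000198719). It was at 28.5, 26.2 and 29.9 CPM in attached cells, at 24.3, 24.9 and 25.3 CPM in suspended cells with vehicle, and at 24.8, 25 and 23.4 CPM with AT-0174. Every attached library was above every suspended library, by less than 1 CPM at the nearest pair, and the suspended groups overlapped. On suspension the mean fell from 28.2 ± 1.85 to 24.8 ± 0.539 CPM, a log2 fold change of −0.18 (SE 0.0528, 95% interval −0.30 to −0.07, adjusted p = 0.0279, edgeR). The call was lost in 6 of 17 alternatives: with counts rebuilt from TPM (−0.17, adjusted p = 0.133), and without attached replicate 1 (−0.17, 0.0726), attached replicate 3 (−0.14, 0.112) or suspended vehicle replicate 1 (−0.16, 0.0802), 2 (−0.18, 0.0752) or 3 (−0.20, 0.0523). *DLL1* shares its locus with *FAM120B* on the opposite strand, and whether counting used strand is not given in the sources used here. *FAM120B* had 1409 to 2062 counts per library and a log2 fold change of 0.06 on suspension (adjusted p = 0.31, edgeR), and its part in the *DLL1* value was not tested. With AT-0174 the *DLL1* log2 fold change was −0.03 (95% interval −0.14 to 0.09, adjusted p = 0.942, edgeR).

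*JAG2*, the second Jagged ligand (ENSG00000184916, chr14:105140982-105168824, minus strand), did not share the direction of the other ligands. It was at 196, 198 and 205 CPM in attached cells, at 201, 219 and 225 CPM in suspended cells with vehicle, and at 215, 226 and 207 CPM with AT-0174. The groups with vehicle overlapped, and every library with AT-0174 was above every attached library. The log2 fold change on suspension was 0.10 (SE 0.0445, 95% interval 0.01 to 0.20, adjusted p = 0.12, edgeR). It passed the threshold without a filter on low counts (0.11, adjusted p = 0.0416) and without suspended vehicle replicate 1 (0.15, adjusted p = 0.0274). With AT-0174 it was 0.01 (95% interval −0.09 to 0.10, adjusted p = 0.987). A noncoding gene on the same strand, ENSG00000257622, overlaps *JAG2* and had 0 to 296 counts, and its part was not tested.

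Of the 4 larger *JAG2* transcripts, 1 had no overlap between attached and suspended libraries. The share over all transcripts was not computed, and at gene level 38.1% of all genes tested did not overlap between the groups with vehicle. The coding transcript ENST00000331782 was at 26.1 to 26.8 TPM in attached cells, 30.5 to 34.3 TPM in suspended cells with vehicle and 31.9 to 33.6 TPM with AT-0174. The other coding transcript, ENST00000347004, was at 7.61 to 8.26, 7.48 to 9.9 and 7.63 to 9.54 TPM. The retained-intron transcripts ENST00000553051, at 37.3 to 40.1, 34 to 50.2 and 30.3 to 39.6 TPM, and ENST00000546616, at 23.8 to 28.5, 26.6 to 30.6 and 25 to 29.1 TPM, also had overlapping ranges. These values are a description, differences between transcripts were not tested, and the shift of 0.10 in the median log2 TPM applies to them. As a ratio of CPM, *JAG1* made 25 ± 0.208% of *JAG2* in attached cells, 14.5 ± 1.34% in suspended cells with vehicle and 12.2 ± 1.3% with AT-0174, the attached libraries lying apart from all 6 suspended libraries.

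Of the receptors, none passed the threshold on suspension. *NOTCH3* (ENSG00000074181, chr19:15159038-15200995, minus strand) was at 265, 267 and 270 CPM in attached cells, at 250, 262 and 247 CPM in suspended cells with vehicle, and at 253, 250 and 252 CPM with AT-0174. Each of the 6 suspended libraries was below each attached library, by a small margin. Its log2 fold change on suspension was −0.08 (SE 0.0298, 95% interval −0.14 to −0.02) with an adjusted p of 0.0764 in edgeR's test, and DESeq2 called it (adjusted p = 0.0467).

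*NOTCH1* (ENSG00000148400, chr9:136494433-136546048, minus strand) was at 75.3, 77.1 and 82.9 CPM in attached cells, at 81.2, 90.4 and 81.4 CPM in suspended cells with vehicle, and at 83.2, 83.9 and 82.5 CPM with AT-0174. The groups overlapped in CPM, and attached replicates 1 and 2 were the lowest libraries. The log2 fold change on suspension was 0.11 (SE 0.0477, 95% interval 0.00 to 0.21, adjusted p = 0.14, edgeR). Its main coding transcript ENST00000651671 was at 5.87 to 9.21 TPM in attached cells, 11.6 to 12.7 TPM in suspended cells with vehicle and 9.8 to 11.1 TPM with AT-0174. Its shares of the *NOTCH1* TPM were 48.3 to 76.0%, 81.8 to 87.7% and 66.5 to 84.3%. These transcript values were not tested, the matching count over all transcripts was not made, and the shift in the median log2 TPM applies to the TPM. *NOTCH2* (ENSG00000134250, chr1:119911553-120100779, minus strand) was at 171, 166 and 179 CPM in attached cells, at 176, 182 and 167 CPM in suspended cells with vehicle, and at 178, 162 and 162 CPM with AT-0174, with overlap of all groups. Its log2 fold change on suspension was 0.02 (95% interval −0.08 to 0.12, adjusted p = 0.78, edgeR). The partial copies *NOTCH2NLA*, *NOTCH2NLB*, *NOTCH2NLC* and *NOTCH2NLR* had 342 to 437, 89 to 182, 194 to 339 and 70 to 110 counts, and the division of reads in the shared part between them and *NOTCH2* is uncertain. With AT-0174, the log2 fold changes were −0.02 for *NOTCH1*, −0.06 for *NOTCH2* and −0.01 for *NOTCH3*, with intervals from −0.12 to 0.08, −0.16 to 0.04 and −0.07 to 0.06 (adjusted p = 0.953, 0.77 and 0.982, edgeR).

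Among the target genes no log2 fold change passed the threshold in either comparison. *HES1*, a repressor of the HES family and a direct Notch target (ENSG00000114315, chr3:194136148-194138732, plus strand), was at 59.3, 57.9 and 58.0 CPM in attached cells, at 61.9, 56.5 and 59.4 CPM in suspended cells with vehicle, and at 56.3, 52.9 and 57.8 CPM with AT-0174. The groups with vehicle overlapped, and so did the suspended groups. For *HES1* every library with AT-0174 was below every attached library, by a small margin, a pair of groups that was not tested. Its log2 fold change was 0.02 on suspension (95% interval −0.08 to 0.12, adjusted p = 0.789) and −0.09 with AT-0174 (95% interval −0.19 to 0.01, adjusted p = 0.591, edgeR). A change of *HES1* as large as that of *JAG1* on suspension was thus outside its interval.

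*HES4*, a HES family gene with 1 match above (ENSG00000188290, chr1:998962-1000172, minus strand), was at 26.4, 28.1 and 27.7 CPM in attached cells, at 22.7, 28.3 and 29.8 CPM in suspended cells with vehicle, and at 29.6, 32.6 and 27.1 CPM with AT-0174. Suspended vehicle replicate 1 was the lowest of the 9 libraries, and the groups overlapped. Its log2 fold change was −0.02 on suspension (95% interval −0.22 to 0.17, adjusted p = 0.882) and 0.14 with AT-0174 (95% interval −0.05 to 0.33, adjusted p = 0.699, edgeR). The value with AT-0174 was 0.03 without suspended vehicle replicate 1, 0.07 without AT-0174 replicate 2 and 0.22 without suspended vehicle replicate 3.

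The gene level of *HES4* overlapped between groups, whereas the shares of 2 of its 4 larger transcripts did not overlap between the attached and all 6 suspended libraries. The share of ENST00000484667 did not overlap between the groups with vehicle only. The matching count over all transcripts was not made. At gene level 38.1% of all genes tested did not overlap between attached and suspended cells with vehicle. The transcript ENST00000481869, annotated as a retained intron, took 38.3, 38.1 and 38.4% of the *HES4* TPM in attached cells, then 30.7, 32.7 and 30.5% in the suspended vehicle libraries, and 29.3, 30.4 and 32.6% with AT-0174. All 6 suspended libraries were below all 3 attached libraries, and the suspended groups overlapped. The coding transcript ENST00000304952 took 44.7, 41.9 and 44.4% in attached cells, then 48.7, 48.4 and 50% in the suspended vehicle libraries, and 48.3, 52.3 and 46.1% with AT-0174, again with no overlap between attached and suspended libraries. The coding transcript ENST00000428771 took 10.9 to 16.4% over the 9 libraries, with overlap of attached and suspended libraries. The coding transcript ENST00000484667 took 3.87 to 6.33% in attached cells, 6.47 to 8.06% in suspended vehicle libraries and 4.9 to 7.54% with AT-0174. Its groups with vehicle did not overlap, and the AT-0174 group overlapped both. In *HES1* the retained-intron transcript ENST00000476918 lay the other way, from 7.96 to 9.67% in attached cells to 10.5 to 12.4% in suspended vehicle libraries, with 9.05 to 14.0% under AT-0174 overlapping both. These shares were not tested, and the shares of a gene are parts of the same total, so they do not move independently. They depend on how Salmon assigned reads between overlapping transcripts, and the 304 to 473 reads behind ENST00000481869 per library limit their precision.

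**Figure D3:**
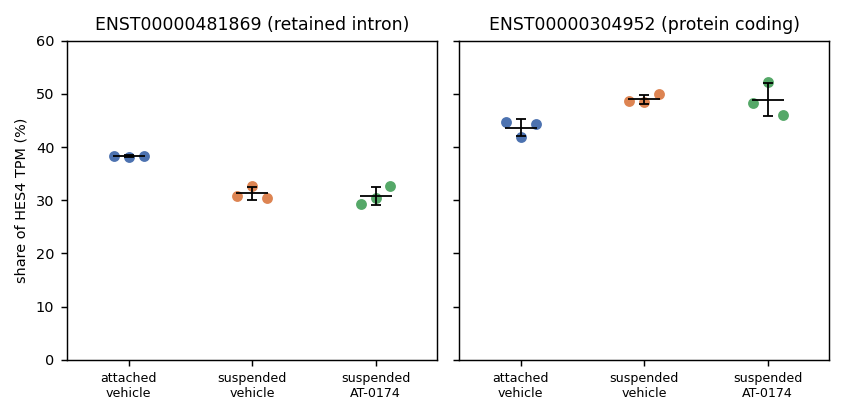
Share of the HES4 TPM (percent) taken by the retained-intron transcript ENST00000481869 and the protein-coding transcript ENST00000304952; each point is a library, horizontal bars are means and error bars SDs (n = 3). The retained-intron share is 38.1 to 38.4% in attached cells and 29.3 to 32.7% in the suspended libraries, and the coding share is 41.9 to 44.7% against 46.1 to 52.3%.

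*NRARP*, a target that restrains the nuclear Notch complex (ENSG00000198435, chr9:137299631-137302271, minus strand), was at 41.0, 42.3 and 41.9 CPM in attached cells, at 38.4, 40.5 and 41.2 CPM in suspended cells with vehicle, and at 41.0, 40.3 and 38.6 CPM with AT-0174. Its log2 fold changes were −0.06 on suspension (95% interval −0.15 to 0.03, adjusted p = 0.348) and 0.00 with AT-0174 (95% interval −0.09 to 0.09, adjusted p = 0.994, edgeR). *HEY1*, a repressor of the HEY family (ENSG00000164683, chr8:79762371-79767857, minus strand), had only 10 to 31 counts per library. It was at 0.81, 0.581 and 0.309 CPM in attached cells, at 0.258, 0.227 and 0.569 CPM in suspended cells with vehicle, and at 0.393, 0.311 and 0.431 CPM with AT-0174, with overlap of all groups. Its log2 fold change on suspension was −0.68 with a 95% interval of −1.60 to 0.25 (adjusted p = 0.29, edgeR). Leaving out attached replicate 1 gave −0.32, and leaving out suspended vehicle replicate 2 or 3 gave −0.43 or −1.21. A change of the size of that of *JAG1* was thus not detectable for *HEY1* at this depth.

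With AT-0174, 0 of the 10 genes passed an adjusted p of 0.05 in edgeR's test, beside 0.779% of all genes tested (0.258% lower), and 1, *JAG1*, had an unadjusted p under 0.05, beside 9.02% of all genes tested. DESeq2 called 1 gene, *JAG1*, and limma-voom called 0. Groups did not overlap for *JAG1* alone, against 15.4% of all genes tested. The median log2 fold change was −0.01 over the 10 genes and 0.00 over all genes. Both comparisons use the same suspended libraries with vehicle, so their values for a gene are not independent.

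**Figure D4:**
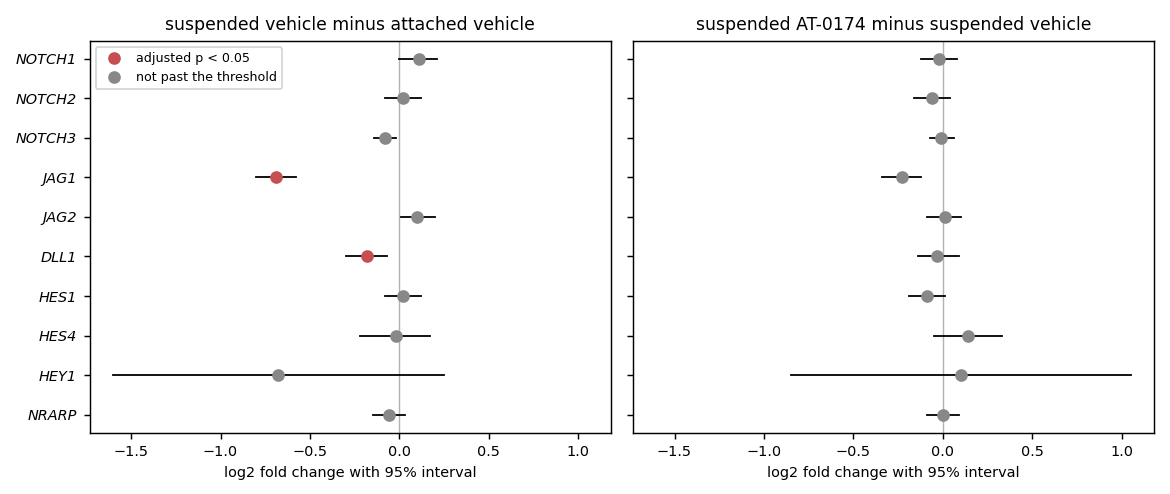
Log2 fold change (point) and 95% interval (line) of the 10 genes from edgeR's quasi-likelihood fit, for suspension on the left and AT-0174 on the right; red points passed an adjusted p of 0.05. JAG1 (−0.69) and DLL1 (−0.18) are red on the left, no point is red on the right, and HEY1 has the widest interval.

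The rest of the pathway was described with 77 further genes in 7 groups, of which 60 passed the filter on low counts. On suspension 18 of the 60 passed an adjusted p of 0.05, 12 higher and 6 lower, with a median log2 fold change of −0.01, beside 21.2% of all genes tested. With AT-0174 2 passed, 1 higher and 1 lower, with a median of −0.01, beside 0.779% of all genes. Among other receptors and ligands, 5 of 9 were tested and 0 passed in edgeR's test in either comparison (0 with an unadjusted p under 0.05). *NOTCH4* had 6 to 13 counts per library, *DLL3* 0 to 2, *DLK2* 1 to 5 and *DLK1* 0 in all libraries, a count of 0 leaving room for 3 counts, that is 0.0625 to 0.0819 CPM before scaling. The smallest unadjusted p values in this group were those of *DLL4*, a Delta-like ligand (log2 fold changes of −0.13 and −0.40, adjusted p = 0.713 and 0.627), and *NOTCH2NLA* (0.06 and −0.15, adjusted p = 0.682 and 0.68, edgeR).

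The Fringe enzymes extend a sugar on Notch receptors and so set which ligands they respond to, and *LFNG* and *RFNG* moved in opposite directions on suspension, while *MFNG* had at most 3 counts. *LFNG* was at 30.9, 30.1 and 28.5 CPM in attached cells, at 39.7, 45.8 and 43.5 CPM in suspended cells with vehicle, and at 45.0, 46.8 and 42.4 CPM with AT-0174. All suspended libraries were above all attached libraries, and the log2 fold change on suspension was 0.53 (SE 0.0587, 95% interval 0.40 to 0.66, adjusted p = 0.000132, edgeR). *RFNG* fell from 36.8 ± 1.35 to a mean of 29.7 CPM, a log2 fold change of −0.31 (adjusted p = 0.00335). Both calls held in all 17 alternatives. *POGLUT1*, which adds glucose to the receptors, was called lower (−0.23, adjusted p = 0.0378), a call that held in 7 of 17 alternatives, lost without any of the attached or suspended vehicle libraries or AT-0174 replicate 3, and turned to 0.03 with counts rebuilt from TPM. Of the 5 glycosylation genes 4 were tested and 3 passed on suspension, beside 21.2% of all genes tested. With AT-0174 0 of 4 passed (0 with an unadjusted p under 0.05), the smallest p values being those of *LFNG* (0.06, adjusted p = 0.846) and *POFUT1*, the O-fucosyltransferase of the receptors (0.02, adjusted p = 0.906, edgeR).

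Of 9 receptor cleavage genes, 1 passed in each comparison, beside 21.2% of all genes tested on suspension and 0.779% with AT-0174. This gene was *FURIN*, the protease that cuts the receptor on its way to the cell surface. It was at 72.8, 69.8 and 70.8 CPM in attached cells, at 86.6, 83.7 and 84.2 CPM in suspended cells with vehicle, and at 75.3, 70.2 and 77.1 CPM with AT-0174. Suspended cells with vehicle were highest, with no overlap with either other group. The log2 fold change was 0.25 on suspension (adjusted p = 0.00136, in all 17 alternatives called) and −0.19 with AT-0174 (SE 0.0394, adjusted p = 0.0445, edgeR). The call with AT-0174 held in 7 of 17 alternatives and was lost with counts rebuilt from TPM, in the 6 libraries of the contrast alone, and without any single library except AT-0174 replicate 3, with adjusted p up to 0.325. The ADAM proteases and the γ-secretase subunits had log2 fold changes from −0.12 (*PSEN2*) to 0.08 (*APH1B*) on suspension, none past the threshold.

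Of 14 tested genes of ligand and receptor endocytosis and ubiquitination, 4 passed on suspension, beside 21.2% of all genes tested. *MIB2*, a ubiquitin ligase of Notch ligands, fell by 0.49 on the log2 scale (51.1 ± 7.66 to a mean of 36.5 CPM, adjusted p = 0.00749). *FBXW7*, which marks the Notch intracellular domain for degradation, fell by 0.21 (adjusted p = 0.00252), and *DTX3*, of the Deltex family, fell by 0.23 (adjusted p = 0.00928, edgeR). The calls of *MIB2* and *FBXW7* held in all 17 alternatives and that of *DTX3* in 16, lost with counts rebuilt from TPM. *MIB2* was at 46.3, 47 and 59.9 CPM in the attached libraries. Without attached replicate 3 the log2 fold change was −0.35 for *MIB2* and −0.16 for *DTX3* (adjusted p = 0.0289 and 0.0277, edgeR). *MIB1*, the other Mind bomb ligase, was called higher by 0.11 (adjusted p = 0.041), but in only 5 of 17 alternatives, and the call was lost without any attached or suspended vehicle library or AT-0174 replicate 1.

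With AT-0174, 1 of these 14 endocytosis and ubiquitination genes passed, beside 0.779% of all genes tested. An unadjusted p under 0.05 in edgeR's test was reached by 3, beside 9.02% of all genes tested. Groups did not overlap for 6, 4 of these lower with AT-0174, against 15.4% of all genes tested. The gene that passed was *NUMBL*, a relative of the Notch inhibitor Numb. It was at 6.22, 6.17 and 5.79 CPM in attached cells, at 5.74, 5.55 and 5.19 CPM in suspended cells with vehicle, and at 7, 7.81 and 7.84 CPM with AT-0174. Libraries with AT-0174 were above all others, and the log2 fold change was 0.46 (SE 0.0845, 95% interval 0.28 to 0.64, adjusted p = 0.0251, edgeR). The call was lost with counts rebuilt from TPM (0.45, adjusted p = 0.571) and without AT-0174 replicate 2 or 3 or any suspended vehicle library, at log2 fold changes of 0.42 to 0.51 over all alternatives.

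In the nuclear complex and its corepressors 18 of 20 genes were tested and 4 passed on suspension, beside 21.2% of all genes tested. All 4 were higher and are known as corepressors. The median log2 fold change of the 18 genes was −0.03. Groups with vehicle did not overlap for 8 of them, 4 of these lower in suspension, against 38.1% of all genes tested. *TLE4*, a Groucho family corepressor that HES proteins recruit, was at 80.6, 84.9 and 80.6 CPM in attached cells, at 109, 111 and 109 CPM in suspended cells with vehicle, and at 110, 110 and 108 CPM with AT-0174. The suspended libraries stood apart from the attached ones, and the log2 fold change on suspension was 0.42 (SE 0.0326, adjusted p = 6.42e-06, edgeR), called in 16 of 17 alternatives and lost with counts rebuilt from TPM (0.22, adjusted p = 0.159). *TLE1*, *TLE3* and *CTBP1* were higher by 0.15, 0.10 and 0.12 (adjusted p = 0.0334, 0.0265 and 0.0269) and held in 11, 10 and 12 of 17 alternatives, and *TLE3* reached −0.11 with counts rebuilt from TPM. These 3 calls were lost without attached replicate 2, that of *TLE1* also without attached replicate 3 or any suspended vehicle library, that of *TLE3* without attached replicate 1 or suspended vehicle replicate 1 or 3, and that of *CTBP1* without attached replicate 1 or suspended vehicle replicate 2 or 3. *RBPJ* itself had a log2 fold change of 0.00 on suspension (95% interval −0.10 to 0.11, adjusted p = 0.959, edgeR). With AT-0174 0 of 18 passed (0 with an unadjusted p under 0.05), the smallest p values being those of the coactivators *MAML3* (−0.10, adjusted p = 0.555) and *CREBBP* (−0.09, adjusted p = 0.669, edgeR).

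Only 2 of 8 further HES and HEY genes were tested, and neither passed. *HES6* was at 40.4 ± 1.52 CPM in attached cells with a log2 fold change of −0.01 on suspension and 0.09 with AT-0174 (adjusted p = 0.928 and 0.813), and *HES7* was at 0.614 ± 0.216 CPM with −0.25 and −0.32 (adjusted p = 0.649 and 0.857, edgeR). *HES2*, *HES5*, *HEYL* and *HELT* had at most 4 counts per library, *HEY2* 3 to 11, and *HES3* 0 in all libraries.

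Of 8 tested genes known as Notch targets in some tissues, 6 were called on suspension, 5 higher and 1 lower, beside 21.2% of all genes tested. These target genes are also under the control of other pathways. *MYC* was at 60, 58.4 and 53.5 CPM in attached cells, at 78.4, 83.4 and 77.9 CPM in suspended cells with vehicle, and at 85.6, 89.2 and 85.4 CPM with AT-0174. The attached libraries were the lowest and the groups did not overlap, and the log2 fold change on suspension was 0.48 (SE 0.0463, adjusted p = 4.38e-05, edgeR). The cell cycle inhibitor *CDKN1A* (0.36, adjusted p = 9.37e-05), *ID3* (0.29, 0.00341), the cyclin gene *CCND1* (0.17, 0.003) and *SOX9* (0.18, 0.0341) were higher, and *NFKB2*, an NF-κB subunit, was lower (−0.31, 0.00073). Calls held in all 17 alternatives for these genes except *SOX9*, which held in 9 and was lost without attached replicate 1 or 3 or suspended vehicle replicate 1 or 2, among others. With AT-0174 0 of 8 passed, although *MYC* (0.12, adjusted p = 0.41) and *ID3* (−0.14, adjusted p = 0.446) had an unadjusted p under 0.05 in edgeR's test, beside 9.02% of all genes tested.

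**Figure D5:**
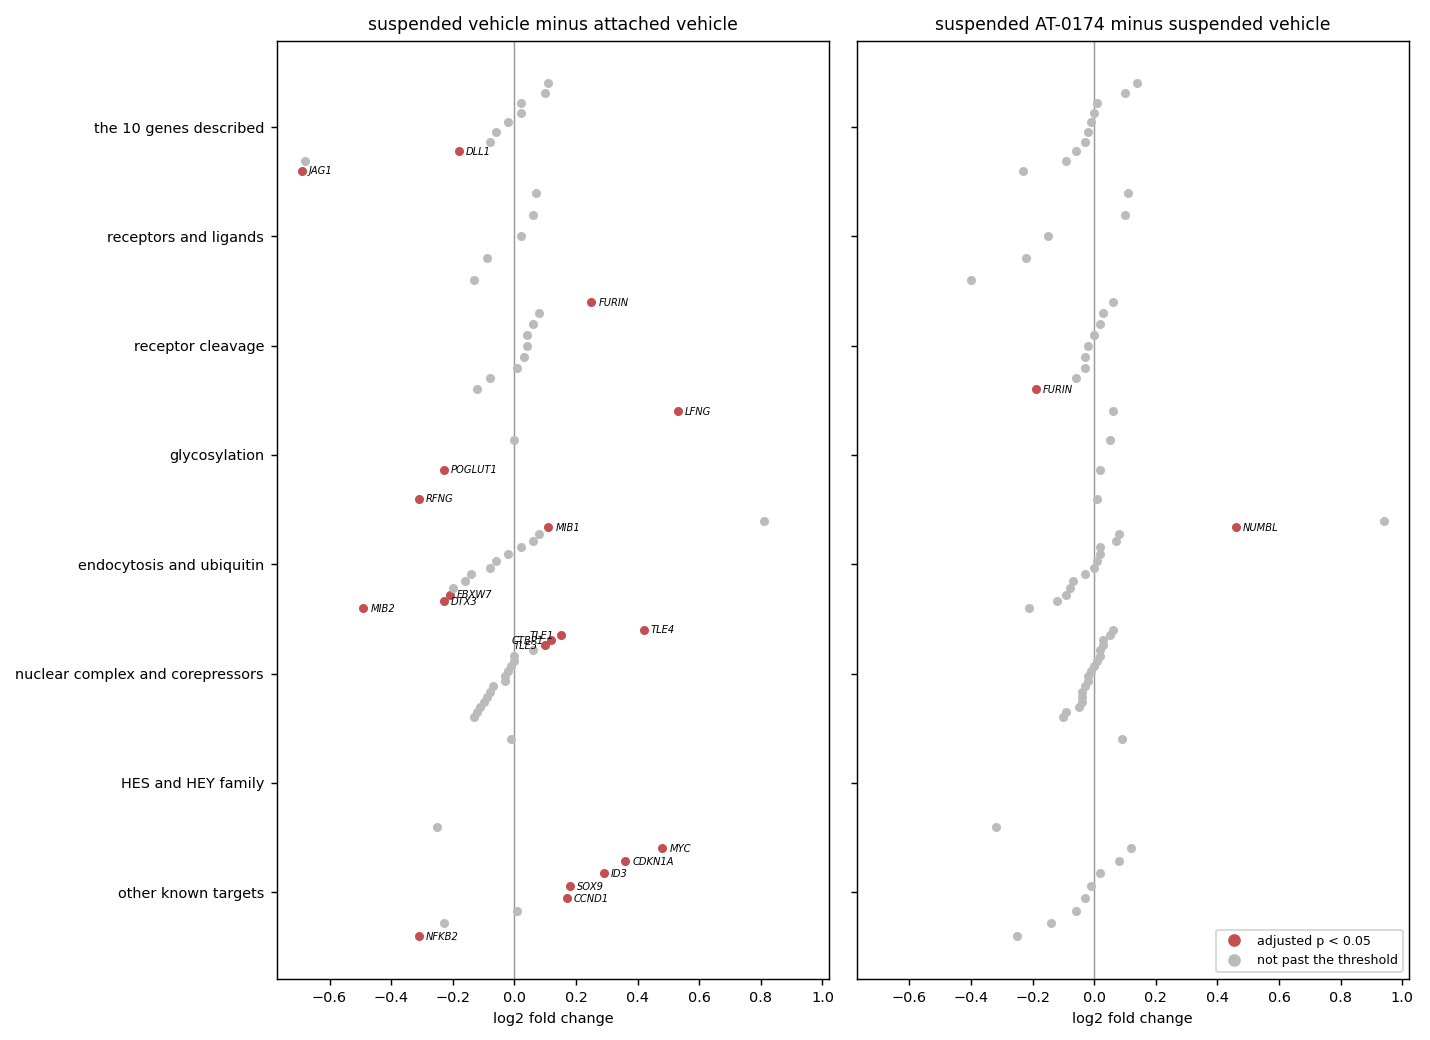
Log2 fold changes of the 10 genes and of 60 further tested pathway genes by group, for suspension on the left and AT-0174 on the right; each point is a gene, spread vertically within its group for legibility, and red points passed an adjusted p of 0.05. On the left 18 further genes are red, 12 of them to the right of 0, LFNG (0.53), MYC (0.48) and TLE4 (0.42) lying farthest right among the red points while NEURL1 (0.81, 2 to 14 counts) is farther right and gray, and on the right only NUMBL (0.46) and FURIN (−0.19) are red.

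The genes whose pattern over the 9 libraries was most like that of *JAG1*, by the root mean square difference of log2 CPM centered on each gene's mean, were *CDH3* (0.0763), *LIX1L* (0.0776) and *NRG3* (0.101), among 12521 genes with a mean count of at least 50. Their log2 fold changes on suspension were −0.68, −0.59 and −0.65, and with AT-0174 −0.27, −0.31 and −0.15. For *DLL1* they were *PKN3* (0.0194), *TFR2* (0.0294) and *VMAC* (0.0296), with −0.20, −0.19 and −0.19 on suspension. These genes were chosen for their likeness, so their values are a description.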

How the data were processed

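Estimated counts per gene were made by the authors with Salmon 1.10.1 and tximport, after trimming with Trim Galore 0.6.7 and alignment with STAR 2.7.9a to GRCh38 (nf-core/rnaseq 3.12.0), and were deposited without normalization. TPM per transcript were also deposited by the authors, from the same Salmon runs. The study's methods and the labels name different library kits. Here estimated counts were rounded, filtered with filterByExpr (15528 genes), scaled by TMM and fitted with edgeR 4.0.16 (R 4.3.3), all 9 libraries in a single quasi-likelihood fit with condition as the only term, two-sided, with Benjamini-Hochberg adjustment over all genes tested. CPM use TMM-scaled library sizes. SEs were derived from the log2 fold change and the F statistic. Counting intervals and limits cover counting error only.

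The members and lists were chosen with earlier results of these data known. Named were the 10 members, each further pathway gene called in either comparison, the 2 with the smallest p of a group without a call, low receptors, ligands and HES/HEY genes by their counts, and the 3 genes most like each called member. *PSEN2*, *APH1B*, *RBPJ* and *NEURL1* are named outside this rule, chosen after their values were seen. Alternatives were limma-voom (limma 3.58.1), DESeq2 1.42.0, its size factors in edgeR, no filter, a minimum of 10 counts per library, 6 libraries only, a replicate block, counts rebuilt from TPM, and each of the 9 libraries left out. No columns of per-sample values were left unused (0).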

Additional observations from a re-analysis of the deposited data

How the results depend on the processing

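The number of the 10 Notch genes called on suspension was 2, but 3 with DESeq2 (*NOTCH3* added) and with no filter on low counts (*JAG2* added), 1 with counts rebuilt from TPM and 1 to 2 with a library left out. With AT-0174 it was 0, but 1 with DESeq2, with no filter on low counts and with a minimum of 10 counts per library, and 0 with any library left out. Of the 60 further pathway genes 18 were called on suspension (12 to 19 over all settings, 13 to 18 with a library left out), and 2 with AT-0174 (0 with counts rebuilt from TPM, 1 in the 6 libraries alone, 3 with no filter, 0 to 1 with a library left out). Of all genes 3297 were called on suspension (1396 with counts rebuilt from TPM, 1935 to 3260 with a library left out) and 121 with AT-0174 (214 with DESeq2, 499 with no filter, 31 with counts rebuilt from TPM, 63 to 128 with a library left out). Apart from leaving out libraries, which removes samples, the cause of these differences was not tested. Same-numbered libraries were no more alike than others, their deviations correlating at −0.157 to 0.106 and those of others at −0.189 to 0.194. With 3 libraries per group, such correlations cannot tell whether the samples were paired. With the replicate number as a block, 2 and 0 of the 10 genes, 17 and 2 of the further genes and 3250 and 146 of all genes were called on suspension and with AT-0174.

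Of 339 values of the 10 genes under alternatives, 308 kept their direction and side of the threshold, 6 lost and 6 gained a call, and 19 changed sign, all of values that were not called. DESeq2 gave no adjusted p for *HEY1* on suspension. On suspension these were *NOTCH2* (0.00 with counts rebuilt from TPM and without attached replicate 2 or suspended vehicle replicate 2, up to 0.06 with any other library left out), *HES1* (−0.01 without suspended vehicle replicate 1, range to 0.06) and *HES4* (0.01 with counts rebuilt from TPM, and −0.10 to 0.09 with a library left out, highest without suspended vehicle replicate 1). With AT-0174 these were *NOTCH1* (0.03 without suspended vehicle replicate 2), *NOTCH3* (0.01 with counts rebuilt from TPM and without suspended vehicle replicate 2), *JAG2* (−0.05 with counts rebuilt from TPM, −0.03 without AT-0174 replicate 2, −0.04 without suspended vehicle replicate 1, range to 0.04), *HEY1* (−0.01, −0.07 and −0.15 without AT-0174 replicate 3, suspended vehicle replicate 1 and 2, range to 0.64) and *NRARP* (0.00 with no filter and without suspended vehicle replicate 2, 0.02 without AT-0174 replicate 3, 0.01 without suspended vehicle replicate 3). Depth limits *HEY1*, at 10 to 31 counts, most.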
